A study of Mus musculus with 7 samples.

Results

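The 31 genes described here encode ligands, latency proteins, antagonists, receptors, intracellular regulators and target genes of the BMP and TGF-beta pathways. They were taken by mouse symbol from the 23725 Entrez gene IDs of the count tables, and all 31 were found. The libraries came from osteoblasts, the cells that build bone matrix, of male C57BL/6 mice carrying KrasLSL-G12D/WT and p53Flox/Flox alleles (KP) and the Ocn-GFP reporter, in which the osteocalcin promoter drives GFP. All 7 mice belong to this line, so the control mice carry the same alleles. The mice were 31 weeks old except for tumor-bearing replicate 4 and tumor-free replicate 3, which were 23 weeks old. In the 4 tumor-bearing mice lung tumors had been started by AdCre given into the trachea, and the tissue was taken 14 weeks later. The other 3 mice were tumor-free and matched for age, sex and litter, and the labels do not say whether they received virus. From each mouse 2000 GFP-positive cells negative for CD45, CD31 and Terr119 (spelled as in the labels) were sorted from digested bone pooled with lineage-depleted marrow. The comparison asked how gene expression in these cells differs when a tumor grows in the lung.

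BMPs and TGF-betas are secreted dimers that bind pairs of type I and type II receptor kinases on the cell surface. Activated receptors phosphorylate Smad proteins, which enter the nucleus with a common partner and switch on target genes, among them inhibitors that damp the same pathway. In bone, BMPs drive mesenchymal progenitors towards the osteoblast fate, while TGF-beta is laid down in the matrix in a latent form, bound through latent TGF-beta binding proteins, and is released when bone is resorbed.

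Library totals ranged from 77127 to 169774 counts, and the group means did not differ beyond the spread (p = 0.800, two-sided exact permutation test of 4 against 3 libraries, which cannot go below p = 0.0286). Levels are given as CPM, counts scaled to a library total of 1000000, and 3 counts were 17.7 to 38.9 CPM in a library on unscaled totals. On the scaled totals behind the levels below (see the processing), 3 counts were 16.9 to 41.1 CPM. The sorted cells carried osteoblast transcripts such as Col1a1 (23 to 96 counts per library). Col1a2, Sparc, Ibsp, Runx2 and Pth1r had at least 7 counts in each library. Other osteoblast markers were low: Bglap, which encodes osteocalcin itself, and Sp7 had only 0 to 2, Alpl 1 to 7 and Spp1 1 to 14. The summed level of 10 osteoblast markers was 1125 to 1742 CPM with a tumor and 1523 to 2568 CPM without, and that of 5 erythroid markers 67.4 to 109.7 CPM and 110.4 to 175 CPM. The part of these markers in the values below was not tested. Of 6 endothelial markers 5 were at 0 counts, Pecam1 among them, and of 10 leukocyte markers 6. Ptprc had 0 to 2 counts, but Itgam had 19 to 45 and Csf1r 8 to 24, and the leukocyte list summed to 388 to 443 CPM with and 374 to 427 CPM without a tumor. The marrow stroma and adipocyte list, mostly Lepr, summed to 702 to 1042 CPM with a tumor and 681 to 749 CPM without. The chondrocyte list, mostly Sox9 (41 to 166 counts per library), summed to 617 to 2785 CPM with a tumor and 838 to 1031 CPM without. Its top was in tumor-bearing replicate 2, with 166 counts of Sox9 and 92 of Col2a1.

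Promoters from the RefSeq table are shown for a member with many counts and for one with almost none. Ltbp1, the gene with the second highest total, has 2 listed starts, and counts taken at the 3′ end of the transcript add both together. Smad6, an inhibitory Smad and known BMP target, had 5 counts in all 7 libraries. Of the members, 21 had a promoter in the table. Each sequence runs 5′ to 3′ on the strand of the gene, from 250 bases before to 50 bases after the start, in build GRCm38.p6. Capitals mark the Smad-binding palindrome GTCTAGAC and the Smad-binding repeat CAGACA, whose reverse complement is TGTCTG; both strands were searched.
Ltbp1 first start (chr17:75005279-75005578, + strand): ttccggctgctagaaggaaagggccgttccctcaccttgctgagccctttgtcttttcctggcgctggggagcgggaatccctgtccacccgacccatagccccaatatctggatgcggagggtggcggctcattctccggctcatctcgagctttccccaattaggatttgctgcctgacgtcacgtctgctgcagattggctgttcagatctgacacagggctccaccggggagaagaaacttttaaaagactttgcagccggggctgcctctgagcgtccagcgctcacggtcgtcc
Ltbp1 second start (chr17:75178531-75178830, + strand): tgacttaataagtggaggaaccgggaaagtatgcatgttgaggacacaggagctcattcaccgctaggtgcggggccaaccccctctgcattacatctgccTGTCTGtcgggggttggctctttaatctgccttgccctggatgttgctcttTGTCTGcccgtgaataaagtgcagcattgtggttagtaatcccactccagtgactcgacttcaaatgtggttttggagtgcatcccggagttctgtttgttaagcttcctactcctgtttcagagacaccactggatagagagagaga
Smad6 (chr9:64022010-64022309, - strand): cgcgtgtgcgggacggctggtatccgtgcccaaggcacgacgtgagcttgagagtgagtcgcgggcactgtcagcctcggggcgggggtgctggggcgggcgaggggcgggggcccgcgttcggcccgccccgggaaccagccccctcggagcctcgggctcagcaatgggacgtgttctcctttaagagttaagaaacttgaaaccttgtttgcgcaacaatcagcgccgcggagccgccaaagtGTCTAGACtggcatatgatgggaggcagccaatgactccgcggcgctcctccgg
The first Ltbp1 window held neither motif and the second held 2 copies of the repeat. The repeat occurred in 4 of the 23 promoters listed for 21 members, in Ltbp1, Ltbp3, Tgfb2 and Tgfbr1, and in 21.0% of all 32851 promoters of the table. The palindrome occurred in 1 of the 23, that of Smad6, and in 0.213% of all. These are matches of letters and not measured binding.

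Counts of the pathway were concentrated in a few genes. The 31 members held 1295 of 830673 counts (0.156%), and 7 of them, Skil, Ltbp1, Smad7, Bmp4, Bmp3, Bambi and Tgfb3, held 85.9% of these. Those 7 passed the low count filter, which asked for 84.3 CPM on unscaled totals in at least 3 libraries, and could be tested; this is 22.6% of the members, against 10.5% of all gene IDs. A further 7 members (22.6%) had 0 counts in every library, as had 43.8% of all gene IDs: Bmp6, Bmp7, Inhba, Nog, Tgfbr2, Id1 and Atoh8. For these, 3 counts over the 7 libraries together would be 3.61 CPM, which is the limit that the depth sets. Another 13 members had 1 to 8 counts in all and never more than 3 in a library, and 4 (Smad9, Tgfb2, Id4 and Tgfbi) had 19 to 59 counts.

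**Figure D1:**
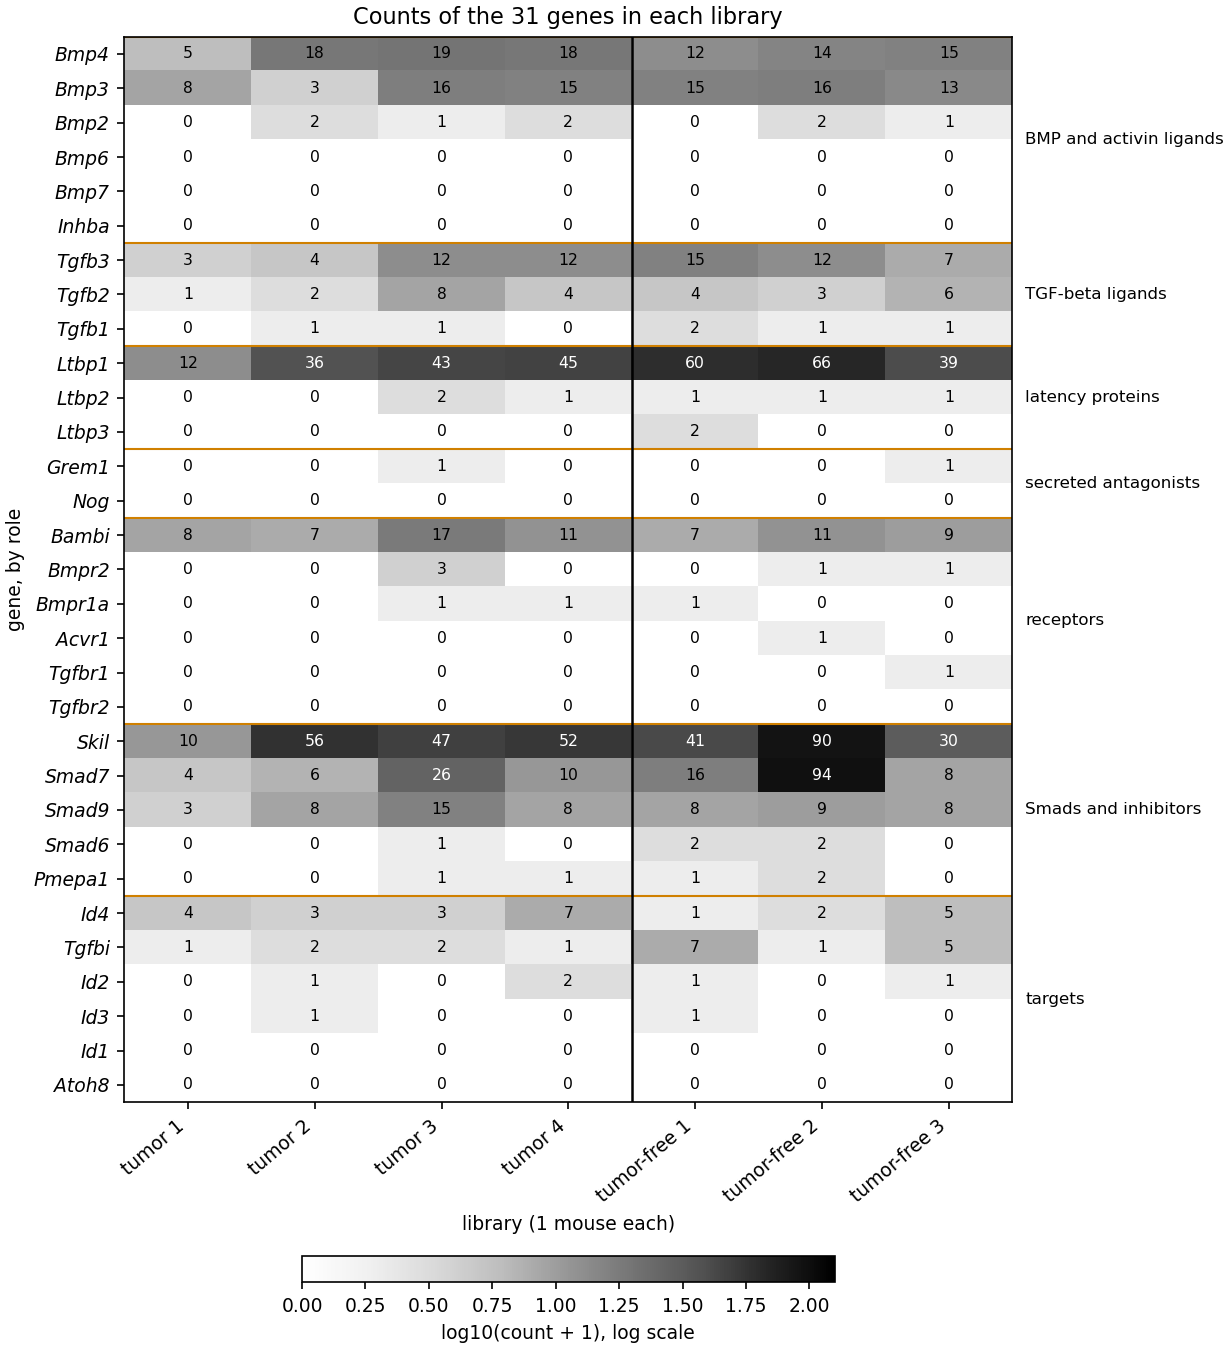
Counts of each of the 31 genes (rows, grouped by role) in each of the 7 libraries (columns; 4 tumor-bearing left of the line, 3 tumor-free right of it), shaded by log10(count + 1). Ltbp1, Skil and Smad7 carry the high counts, and the receptor rows other than Bambi are almost empty.

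The 6 BMP and activin ligand genes summed to 215 ± 30.5 CPM (SD, n = 4) with a tumor and 256 ± 19.8 CPM (SD, n = 3) without, nearly all of it from Bmp4 and Bmp3. Bmp4 (Entrez ID 12159, chr14:46383525-46390669, mm10), a BMP that promotes osteoblast differentiation, had 5, 18, 19 and 18 counts in tumor-bearing replicates 1 to 4 and 12, 14 and 15 in tumor-free replicates 1 to 3. On the CPM scale these were 68.6, 189, 107 and 123 against 117, 119 and 121. The tumor-free values were close together and the tumor-bearing ones lay on both sides of them, at 122 ± 50.3 CPM (SD, n = 4) against 119 ± 2.07 CPM (SD, n = 3). Its log2 fold change, tumor-bearing over tumor-free, was 0.048 (SE 0.35, 95% interval -0.77 to 0.87), and -0.23 without tumor-bearing replicate 2. These counts do not tell apart changes within that interval.

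Bmp3 (Entrez ID 110075, chr5:98854415-98884053), an unusual member of the family that limits bone density, had 110, 31.5, 89.9 and 102 CPM with a tumor and 146, 136 and 105 CPM without. The 2 highest values were tumor-free and the lowest, at 3 counts, was tumor-bearing replicate 2, but replicate 1 with a tumor lay above replicate 3 without. The means were 83.4 ± 35.5 CPM (SD, n = 4) and 129 ± 21.4 CPM (SD, n = 3), a log2 fold change of -0.59 (SE 0.40, unadjusted p = 0.178, adjusted p = 0.990, edgeR with Benjamini-Hochberg adjustment). Scaled by total counts alone, the highest tumor-bearing library (106 CPM) fell just under the lowest tumor-free one (110 CPM).

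Bmp2, an inducer of bone formation, had 0 to 2 counts per library. Bmp6, Bmp7 and Inhba, which encodes the activin A subunit, were among the genes at 0. In mean CPM over the 7 libraries Bmp4 (121) and Bmp3 (103) were close, and Bmp4 was higher in 4 of 7. Counts of 3′ ends should not grow with transcript length, so levels of different genes are set side by side as CPM, not per kilobase. Whether this holds in these libraries was not tested. Over all genes, those with at least 20 counts had a median transcript length of 3973 bases, and the others 2491. Per kilobase of the longest transcript, Bmp4 was higher than Bmp3 in 7 of 7 libraries.

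The 3 TGF-beta ligand genes summed to 88.9 ± 29.7 CPM (SD, n = 4) with a tumor and 151 ± 47.6 CPM (SD, n = 3) without, and kept one order. Tgfb3 had 65 counts, Tgfb2 28 and Tgfb1 6, and Tgfb3 exceeded Tgfb2, and Tgfb2 exceeded Tgfb1, in 7 of 7 libraries. Tgfb1 had only 0 to 2 counts per library. In tumor-bearing replicates 1 and 2, Tgfb2 had 1 and 2 counts against 0 and 1 of Tgfb1. The order of Tgfb2 and Tgfb1 thus rests on few counts. The CPM ranges of neighbours still overlapped over libraries, with 41.1 to 146 for Tgfb3, 13.7 to 48.4 for Tgfb2 and 0 to 19.5 for Tgfb1. Tgfb3 (Entrez ID 21809, chr12:86056743-86079041), a TGF-beta isoform of mesenchymal tissues, had 41.1, 42.0, 67.4 and 81.9 CPM with a tumor and 146, 102 and 56.4 CPM without. The first and second tumor-free libraries were the highest of all, and the third lay among the tumor-bearing ones. The means were 58.1 ± 19.97 CPM (SD, n = 4) and 101 ± 44.8 CPM (SD, n = 3). This gave a log2 fold change of -0.67 (SE 0.45, unadjusted p = 0.175, edgeR), which was -0.33 without tumor-free replicate 1 and -1.17 without tumor-free replicate 3. Tgfb2 had 26.7 ± 13.3 CPM (SD, n = 4) with and 37.6 ± 11.5 CPM (SD, n = 3) without a tumor, and was not tested.

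Latent TGF-beta binding proteins were represented by 1 gene. Ltbp1 (Entrez ID 268977, chr17:75005480-75392512), which tethers latent TGF-beta to matrix fibrils, had 301 of the 309 counts of the 3 latency genes, and Ltbp2 and Ltbp3 had at most 2 counts in a library. Ltbp1 had 12, 36, 43 and 45 counts in tumor-bearing replicates 1 to 4 and 60, 66 and 39 in tumor-free replicates 1 to 3. These were 165, 378, 242 and 307 CPM against 584, 560 and 314 CPM. All tumor-bearing values lay below tumor-free replicates 1 and 2, while tumor-free replicate 3 lay within their range. The means were 273 ± 91.3 CPM (SD, n = 4) and 486 ± 149 CPM (SD, n = 3). The log2 fold change of Ltbp1 was -0.80 (SE 0.33, 95% interval -1.57 to -0.023), a fitted level 0.575 times that of tumor-free mice. The unadjusted p was 0.0450 and the adjusted p 0.990 (edgeR), so the difference did not pass.

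The Ltbp1 values were also read within each age. In the 31-week mice the 3 tumor-bearing libraries (165 to 378 CPM) lay below both tumor-free ones (560 and 584 CPM). The log2 fold change was -1.13 in these mice alone (unadjusted p = 0.0216, edgeR). No gene passed in that fit, where the lowest adjusted p was 0.996 (edgeR). In the 23-week pair the values were 307 CPM with and 314 CPM without a tumor, from 1 mouse each, so the difference between ages was not tested. In a bulk library, fewer cells that express a gene and less of its RNA per cell cannot be told apart. Ltbp1 was below 0 under each of the 16 alternative settings (listed with the processing), from -1.17 to -0.66, with unadjusted p from 0.0181 to 0.128.

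**Figure D2:**
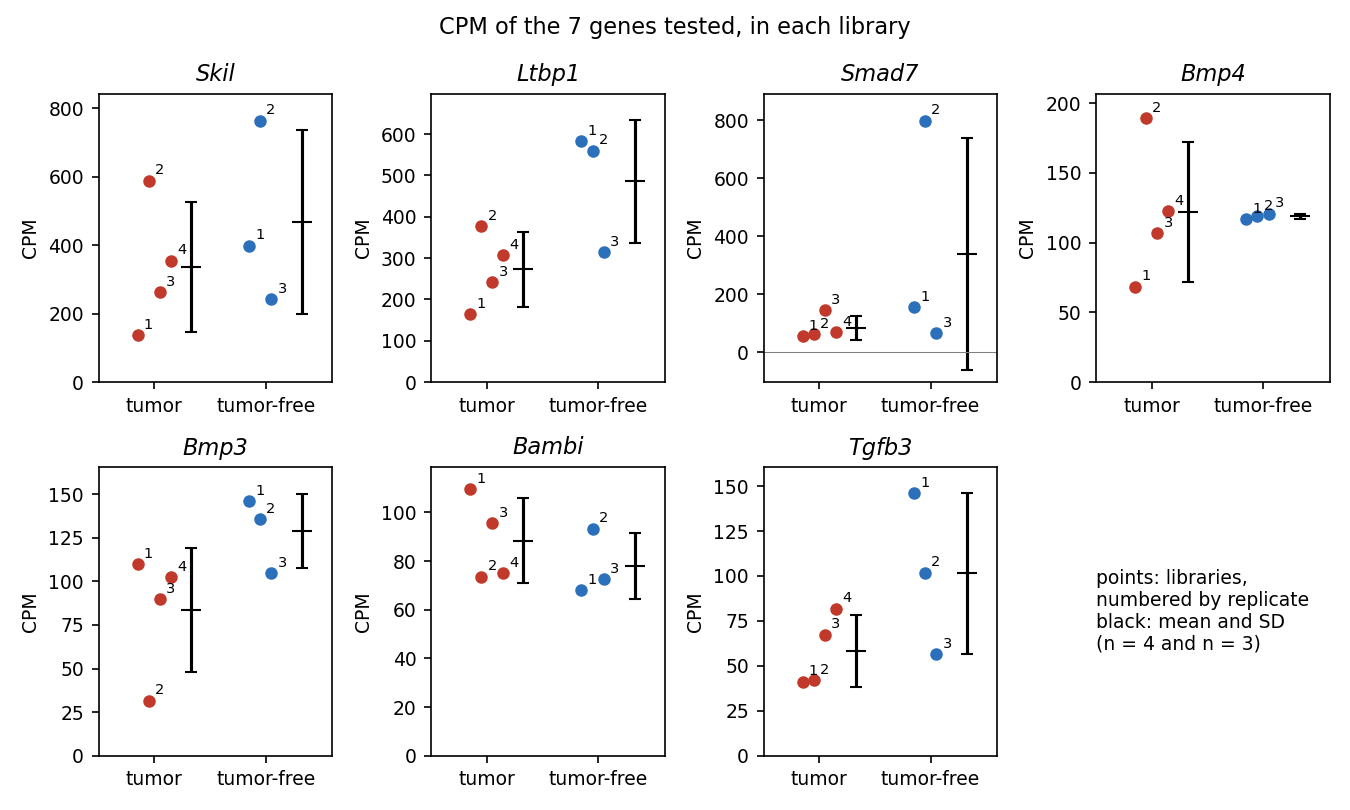
CPM (y axis, linear, on TMM-scaled totals) of the 7 genes tested, for 4 tumor-bearing and 3 tumor-free libraries numbered by replicate; black bars give mean and SD. For Ltbp1, 2 of the 3 tumor-free libraries stand above all tumor-bearing ones, and for Smad7 the tumor-free mean rests on replicate 2.

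Both secreted antagonists among the members were nearly absent. Nog, which encodes noggin, a protein that traps BMPs, had 0 counts, and Grem1, which encodes gremlin, had 2 counts in all.

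The 5 signalling receptors among the members were at the edge of detection in both groups. Bmpr2 (type II BMP receptor), Bmpr1a and Acvr1 (type I receptors of BMPs) and Tgfbr1 and Tgfbr2 (the TGF-beta receptor pair) had 10 counts together in 7 libraries, and never more than 3 in a library. Bambi (Entrez ID 68010, chr18:3507011-3516404), a pseudoreceptor without kinase activity that blocks signalling, had 70 counts and exceeded Bmpr2 in 7 of 7 libraries. This gene had 110, 73.6, 95.5 and 75.0 CPM with a tumor and 68.1, 93.4 and 72.5 CPM without. The groups overlapped, with 88.5 ± 17.4 CPM (SD, n = 4) and 78.0 ± 13.5 CPM (SD, n = 3), and the log2 fold change was 0.15 (SE 0.33, 95% interval -0.61 to 0.91).

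Of the intracellular regulators, Skil and Smad7 had high and uneven counts. Smad7 (Entrez ID 17131, chr18:75367365-75395935), an inhibitory Smad that TGF-beta and BMP signals induce, had 4, 6, 26 and 10 counts with a tumor and 16, 94 and 8 without. On the CPM scale these were 54.9, 63.1, 146 and 68.2 against 156, 798 and 64.5. Tumor-free replicate 2 alone held 59.1% of the summed CPM and was 5.13 times as high as the next tumor-free library, and the other values of both groups overlapped. The means were 83.1 ± 42.4 CPM (SD, n = 4) and 339 ± 399.8 CPM (SD, n = 3). The log2 fold change of Smad7 was -1.81 (SE 0.71, unadjusted p = 0.0383, adjusted p = 0.990, edgeR), and -0.44 without that library (unadjusted p = 0.436). In the 31-week mice alone it was -2.30, and the 23-week pair stood at 68.2 CPM (tumor-bearing) and 64.5 CPM (tumor-free).

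Skil (Entrez ID 20482, chr3:31095058-31122923), which encodes SnoN, a repressor of TGF-beta signalling that TGF-beta itself induces, had the most counts of the members (326). It had 137, 589, 264 and 355 CPM with a tumor and 399, 764 and 242 CPM without. The highest value was again tumor-free replicate 2 and the lowest tumor-bearing replicate 1, and the groups overlapped. The means were 336 ± 190.5 CPM (SD, n = 4) and 468 ± 268 CPM (SD, n = 3), a log2 fold change of -0.43 (SE 0.50, unadjusted p = 0.417, edgeR), and 0.035 without tumor-free replicate 2. In mean CPM over the 7 libraries Skil (393) and Ltbp1 (364) stood above Smad7 (193) and Bmp4 (121), and Skil exceeded Smad7 in 6 of 7 libraries.

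Smad9, a receptor-activated Smad of the BMP branch, varied less. It had 41.1, 84.1, 84.3 and 54.6 CPM with a tumor and 77.8, 76.4 and 64.5 CPM without, and missed the filter. Smad6 and Pmepa1, a membrane protein that TGF-beta induces and that restrains it, had 5 counts each and at most 2 in a library.

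The 6 members grouped here as targets, apart from the induced inhibitors above, had 51 counts in all. Id1, Id2 and Id3, inhibitors of DNA binding that are textbook BMP targets, had 7 counts together, and Atoh8, a BMP-induced transcription factor, had 0. Id4, a further gene of the Id family, had 25 counts, with 37.8 ± 17.0 CPM (SD, n = 4) with and 22.3 ± 16.0 CPM (SD, n = 3) without a tumor. Tgfbi, a matrix protein induced by TGF-beta, had 1, 2, 2 and 1 counts with a tumor and 7, 1 and 5 without. Both were too low to be tested.

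Over all 2495 genes tested, 0 passed at an adjusted p under 0.05 (0.0%, lowest adjusted p = 0.990 in edgeR), and so 0 of the 7 members did. DESeq2 and limma voom also called 0 genes, and edgeR had 67 at an unadjusted p under 0.05. At an unadjusted p under 0.05, 2 of the 7 were on the lower side, Smad7 and Ltbp1, where 1.68% of all genes were lower and 1.0% higher. This count was 0 to 3 over the 16 alternatives. Log2 fold changes lay below 0 for 5 of the 7 members and for 45.9% of all genes tested. The median was -0.59 over the 7 members and 0.038 over all genes. Without tumor-free replicate 2 it was -0.20 over the 6 members still tested. Without tumor-bearing replicate 4 it was -0.90 over the 5 still tested, so these medians do not cover the same genes. None of the 7 had groups that did not overlap, where 1.32% of all genes were lower without overlap and 2.2% higher. Tgfb3 and Smad7 passed the filter through 1 tumor-bearing and 2 tumor-free libraries, Bambi through 2 and 1, and the other 4 members through at least 3 of each group. The p-values measure the spread between single mice, 1 library each.

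**Figure D3:**
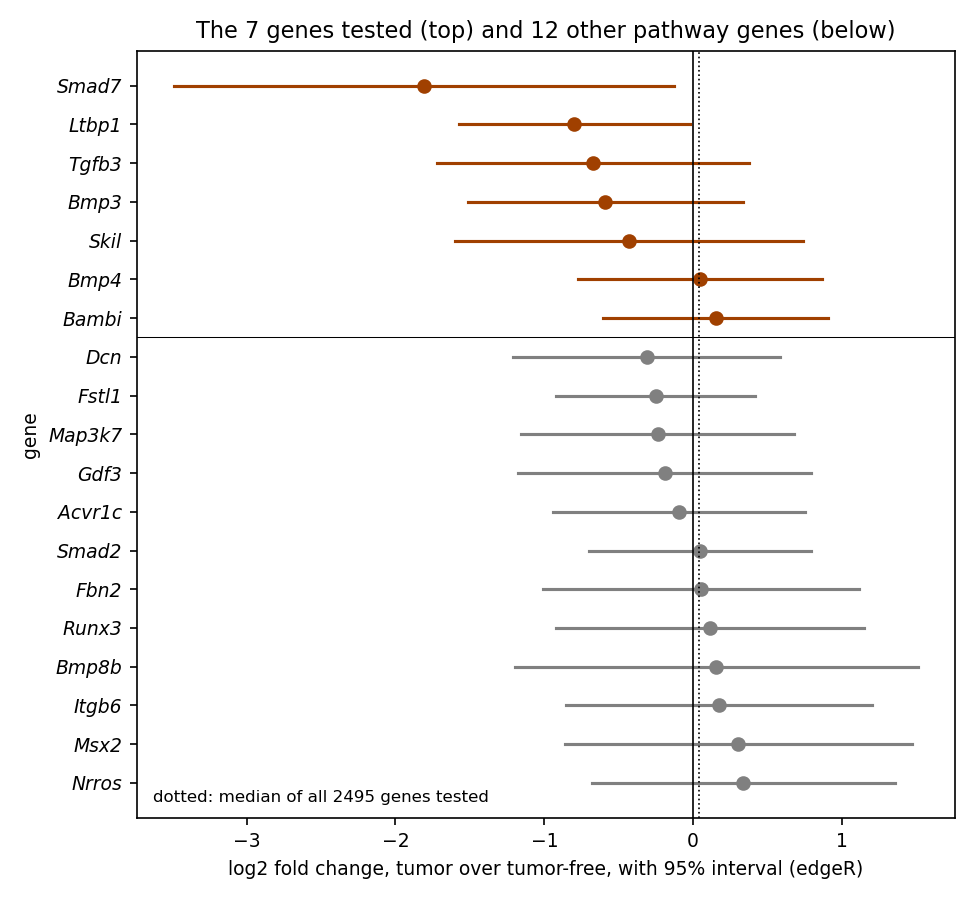
Log2 fold change, tumor over tumor-free (x axis), with 95% interval for the 7 members (above the line) and 12 other pathway genes (below), from the fit on all genes; the dotted line is the median of all 2495 genes. The intervals of Smad7 and Ltbp1 end below 0 before adjustment, and the other 17 include 0.

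**Figure D4:**
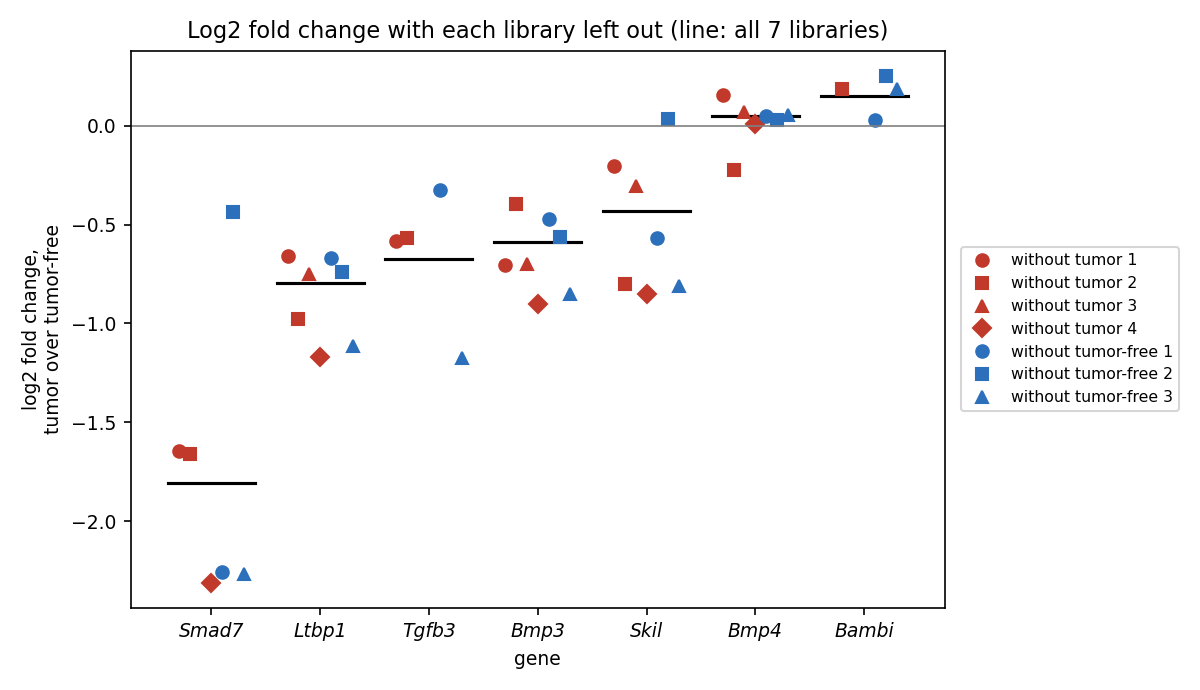
Log2 fold change (y axis) of the 7 members with each library left out in turn; red symbols leave out a tumor-bearing and blue a tumor-free library, and the line is the value with all 7. A missing symbol means that the gene failed the filter. Without tumor-free replicate 2, Smad7 was at -0.44 and Skil at 0.035, while Ltbp1 lay between -1.17 and -0.66.

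Spread between mice of a group was set beside counting noise. The Pearson chi-square per degree of freedom, about 1 if counts were independent molecules and the mice did not differ, was 0.309 for Bambi, 0.470 for Smad9, 0.614 for Tgfb2, 1.02 for Bmp3, 1.12 for Bmp4, 1.16 for Id4 and 1.34 for Tgfb3. It was 3.84 for Ltbp1, 13.3 for Skil and 23.7 for Smad7, against a median of 2.12 over all genes tested. This measure grows with the count, and those 3 genes have the most counts of the members. A value as high as that of Smad7 occurred in 7.41% of the genes tested. Among the 10 members with at least 20 counts, 1 (Smad7) had at least 40% of its summed CPM in a single library, and this held for 10.7% of all 4445 genes with as many counts. Tgfbi, with 19 counts, lay just outside that minimum and had 40.1% in tumor-free replicate 1. An even split would give each library 14.3%. Of the 477 such genes, 58 had their highest level in tumor-free replicate 2, and the other libraries had 42 to 86.

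**Figure D5:**
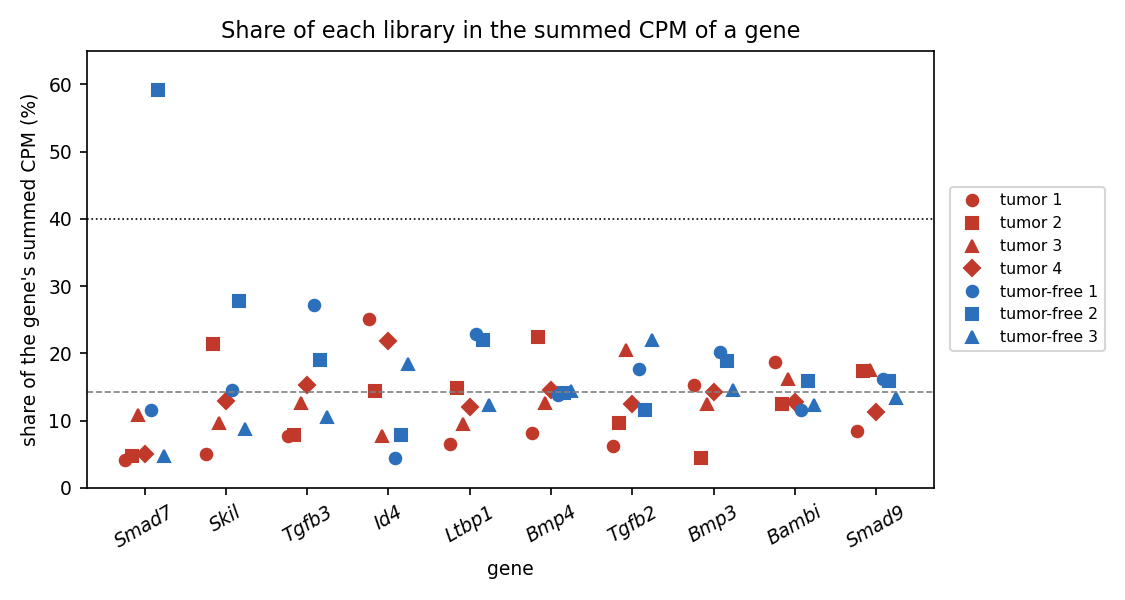
Share of each library in the summed CPM of a gene (y axis, percent) for the 10 members with at least 20 counts; the dashed line is an even split and the dotted line 40%. Tumor-free replicate 2 holds 59.1% of Smad7, and no other point passes 27.8%.

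Sequence features were compared with the counts. A window of 12 bases with 11 or more A, not counting the final 100 bases of a transcript, was present in the longest transcript of 6 of the 10 members with at least 20 counts (60.0%), namely Skil, Ltbp1, Smad7, Bmp4, Tgfb2 and Id4, and of 7 of the other 21 (33.3%). Over all genes these shares were 37.1% and 13.8%. Such windows can take up an oligo(dT) primer, and their part in these counts was not tested. Median transcript length was 5095 bases in the first set of members and 3593 in the second, and over all genes 3973 and 2491. Bmp4, Tgfb2, Tgfb3 and Id4 share between 82 and 257 exon bases with annotated genes on the opposite strand. How the counting treated strand is not stated, so reads of such pairs cannot be told apart.

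A further 91 genes of the pathways were read in the same fit, and 12 of them (13.2%) could be tested. None passed, 5 were below 0 and 7 above, and their values lay between -0.31 and 0.34 with a median of 0.049 (lowest unadjusted p = 0.407, edgeR). The one with the most counts was Acvr1c, a type I receptor of activin and Nodal, with 491 ± 222 CPM (SD, n = 4) against 517 ± 285 CPM (SD, n = 3) and a log2 fold change of -0.09 (SE 0.37). The smallest p belonged to Fstl1, a secreted glycoprotein that can bind BMPs (-0.25, SE 0.29), Dcn, encoding the matrix proteoglycan decorin, which binds TGF-beta (-0.31, SE 0.39), Nrros, which holds latent TGF-beta on cells (0.34, SE 0.44), and Map3k7, a kinase of the Smad-independent branch (-0.24, SE 0.40). Runx3 (0.12, SE 0.45), Fbn2, encoding a fibrillin (0.05, SE 0.46), and Itgb6, an integrin chain that activates latent TGF-beta (0.17, SE 0.44), completed the genes with most counts. Sostdc1, a secreted BMP antagonist, had 169 of its 197 counts in tumor-bearing replicate 3 and missed the filter. Msx1, a BMP-induced homeobox gene picked after its values were seen, had 35 of 67 counts in tumor-free replicate 2, the library in which Smad7 and Skil were highest.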

How the data were processed

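RNA of 2000 sorted cells per mouse was extracted with Trizol and made into 3′ end libraries by a custom CEL-Seq protocol with unique molecular identifiers, per the labels' protocols. Alignment tools named in the submitters' processing notes are TopHat2 2.0.10 and SAMtools, with build mm10. Which program counted, on which annotation and strand, and any collapsing of identifiers: not given in the sources used. The authors deposited whole-number counts per Entrez gene ID, not normalized, 1 file per mouse. Symbols and coordinates came from a RefSeq table of GRCm38.p6, the assembly of mm10. No library repeated another: chi-square per degree of freedom was 3.57 to 6.85 over 21 pairs.

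The low count filter was edgeR's filterByExpr (version 4.0.16; minimum count 10 and minimum total 15). Counts were scaled by TMM and tested with glmQLFit (robust) and glmQLFTest in R 4.3.3, with age as a factor and Benjamini-Hochberg adjustment over the 2495 genes tested. Fold changes used a prior count of 0.125, and SE is the absolute log2 fold change divided by the square root of F. CPM are counts over library totals times the TMM factor. The procedure was tested on simulated data. The 16 alternatives were each library left out, the 31-week mice alone, dropping the age term, a replicate block, DESeq2 1.42.0, voom of limma 3.58.1, RLE scaling, total counts alone, all genes unfiltered, and a filter of 30 counts in 3 or more libraries. All 31 members are named. Of the other pathway genes the 6 with most counts and the 4 with the smallest p are named. The members, lists and tests were chosen with earlier results of these data known.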

Additional observations from a re-analysis of the deposited data

Results flagged for a closer look

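Of 19 genes checked within the 4 tumor-bearing libraries, 2 had a library set far apart from the other 3, where chance sets about 1 group in 20 apart by Dixon's test, which divides the gap to the nearest library by the whole range. Smad7 had 146 CPM in tumor-bearing replicate 3 and at most 68.2 CPM in the others, a ratio of 0.854. Sostdc1, a secreted BMP antagonist, had 949 CPM in the same library and at most 109.7 CPM in the other 3, a ratio of 0.897. Sostdc1 was among the genes checked because of its total count, and 169 of its 197 counts came from that library. Its choice thus rested on the value that the test flags, so 2 of 19 cannot be set against the share from chance.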

How the results depend on the processing

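The count of genes called, and of members called, was 0 under each of the 16 alternatives. Leaving out 1 library each moved the median log2 fold change of the members between -0.90 and -0.20, and the other alternatives kept it below 0. With a library left out, 4 to 7 members were still tested, so these medians cover different genes. Bmp4 changed sign with the replicate block (-0.051), and over the libraries left out it ranged from -0.23 (without tumor-bearing replicate 2) to 0.15. Skil ranged from -0.85 to 0.035 (without tumor-free replicate 2). Under total counts only, 1 member (Bmp3) had groups that did not overlap. The share of all genes without overlap was not counted under that scaling, so there is none to set beside it. The cause was not tested. Fewer libraries or stricter filters left Tgfb3 without a value under 6 alternatives, Bambi under 5, Smad7 under 2 and Bmp3 and Bmp4 under 1 each. After the group mean was subtracted from the log CPM of each gene, same-numbered libraries had correlations of -0.21 to -0.14. By this measure 0 of 6 libraries correlated best with their own number. These are correlations of deviations from the group mean, not of whole profiles. Number 3 joined a tumor-bearing mouse of 31 weeks and a tumor-free mouse of 23 weeks. The check therefore does not speak to the matching of the mice by age and litter. In the replicate block fit, made on the same 3 number pairs and without the age term, Ltbp1 was at -0.91, Smad7 at -1.37 and Bmp3 at -0.80. No member had an unadjusted p under 0.05 in 5 alternatives (without tumor-bearing replicate 1 or 3 or tumor-free replicate 2, the block, and voom). Members with 1 to 8 counts are below what this depth can compare.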
